A study of Homo sapiens with 10 samples.

Results

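Cytoplasmic ribosomal protein genes, which encode the protein components of the ribosome outside mitochondria, were followed in Kuramochi, a human epithelial ovarian cancer line. The members were all genes whose symbol follows the RPL and RPS naming pattern, with RPLP0, RPLP1, RPLP2 and RPSA, and without the RPS6K kinases. This rule took 83 of the 12373 genes of the deposited matrix: 46 of the large subunit, 31 of the small subunit and 6 paralogs (RPL7L1, RPL10L, RPL22L1, RPL26L1, RPL39L and RPS27L). RPL3L and RPS4Y1 were not analysed here. The study took the line through an olaparib dose escalation, and single cells of 10 populations were profiled by inDrop, a droplet method that counts unique molecular identifiers (UMIs). Olaparib inhibits PARP enzymes, and all populations, the untreated one included, carry mutant BRCA2. Treated cells grew at 1, 2.5, 5, 10, 20, 40, 80, 160 or 320 µM olaparib until confluency (T1 to T320), against untreated cells (C). There was 1 library per population and 1 escalation of 1 line, so a difference between 2 populations is also a difference between 2 libraries.

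The matrix held 51277639 UMIs from 18209 cells, with 726 to 2645 cells and 1976069 to 9343704 UMIs per population. The authors gave a state, C or S1 to S5, to 8240 cells (45.3%). Of 17195 cell barcodes, 970 (5.64%) occurred in more than 1 population. Of the epithelial markers, KRT8 was at 147 CPM (a gene's UMIs scaled to a library total of 1000000) in T80 against 1027 CPM in C, KRT18 at 264 against 533 CPM, KRT19 at 50.4 against 29.9 CPM, and EPCAM was listed at 0 in both. The serous ovarian markers PAX8, WT1 and SOX17 were at 151, 14.2 and 5.45 CPM in T80 against 299, 135 and 390 CPM in C, and all 3 fell in the slope test described below (edgeR). Summed markers of other cell types stayed at or below 43.9 CPM for leukocytes and 14.3 CPM for endothelium, and reached 671 CPM in T10 for fibroblasts, nearly all of it COL1A1 (664 CPM). The matrix held only 1 of 5 leukocyte markers (CD68), 3 of 4 endothelial and 2 of 5 fibroblast markers. The leukocyte value is thus that of 1 gene, and the epithelial marker CDH1 was absent as well. The part of cells of other types in the results was not tested. T160 and T320 are given apart, because many genes that have near-identical copies had low counts in those libraries.

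A ribosome joins a small subunit, which reads the mRNA, to a large subunit, which forms the peptide bonds, and most ribosomal proteins are present in a fixed ratio to the others. Their mRNAs are among the most abundant in dividing cells. In vertebrates most of them start with a run of pyrimidines, the 5′ terminal oligopyrimidine (TOP) motif, through which mTORC1 controls their translation, so mRNA level and protein output can be regulated separately.

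Gene starts are shown for 3 members beside their paralogs and for 4 members on which the results below turn. The sequences are RefSeq gene starts on GRCh38.p14, 25 bases before to 25 bases from the start, 5′ to 3′ on the gene's strand, and capitals mark the longest run of at least 8 C or T letters that lies in the 10 bases before to 20 bases after the start. RPS27 is at chr1:153990737-153990786 (+), RPS27L at chr15:63157453-63157502 (-), RPL22 at chr1:6199571-6199620 (-), RPL22L1 at chr3:170870171-170870220 (-), RPL26 at chr17:8383169-8383218 (-) and RPL26L1 at chr5:172958704-172958753 (+). RPS21 is at chr20:62387078-62387127 (+), RPL18 at chr19:48619154-48619203 (-), RPL37A at chr2:216498819-216498868 (+) and RPS6 at chr9:19380212-19380261 (-).
RPS27: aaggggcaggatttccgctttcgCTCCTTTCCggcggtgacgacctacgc
RPS27L: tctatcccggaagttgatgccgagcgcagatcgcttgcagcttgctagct
RPL22: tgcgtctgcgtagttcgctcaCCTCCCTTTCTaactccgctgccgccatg
RPL22L1: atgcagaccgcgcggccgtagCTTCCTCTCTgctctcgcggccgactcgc
RPL26: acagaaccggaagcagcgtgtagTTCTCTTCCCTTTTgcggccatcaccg
RPL26L1: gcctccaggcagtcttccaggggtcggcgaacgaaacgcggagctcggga
RPS21: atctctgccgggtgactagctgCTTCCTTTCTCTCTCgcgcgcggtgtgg
RPL18: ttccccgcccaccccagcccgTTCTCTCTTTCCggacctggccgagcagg
RPL37A: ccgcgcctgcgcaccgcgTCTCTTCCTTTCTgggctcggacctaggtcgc
RPS6: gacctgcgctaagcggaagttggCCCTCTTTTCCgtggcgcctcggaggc

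Such a run, on the strand of the gene, was present in 53 of the 62 members other than paralogs with a RefSeq entry (85.5%), in 1 of 5 paralogs (20%, RPL22L1) and in 1648 of 9629 other genes of the matrix (17.1%). The run was 15 letters in RPS21, 14 in RPL26, 13 in RPL37A, 12 in RPL18 and 11 in RPS6. RPS21, RPL26 and RPL18 stood far above C at 80 µM, whereas RPL37A and RPS6 did not, and all 5 hold a run. A match describes the letters and not a site in use.

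The share of all UMIs that came from the 83 genes was 11.3%, 13.7%, 12%, 11.9%, 9.05%, 15.1%, 15.3% and 20.6% in C, T1, T2.5, T5, T10, T20, T40 and T80, in that order. T10 was the lowest and T80 the highest of these 8 populations, and the exact 95% intervals, which cover counting error only, lay within 0.1 percentage points of each value. The cells with a state label gave the same lowest and highest population, at 9.35% in T10 and 20.9% in T80. The share varied with how many UMIs a cell held, and most in C. In T80 it was 21.8% in the 582 cells under 2000 UMIs and 19.8% in the 405 cells with at least 5000, and in C it was 15.7% in 884 and 10.6% in 716 such cells. Over cells of 1000 to 2000 UMIs alone, the share was 21.9% in T80, 15.2% in T20 and 8.9% in T10, against 15.5% in C, so that T1 (14.9%) and T20 no longer exceeded C. Mitochondrial transcripts took 7.08% to 9.31% of UMIs in the treated populations, against 11.5% in C. With those left out, the ribosomal protein share was 22.5% in T80 against 12.8% in C.

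**Figure D1:**
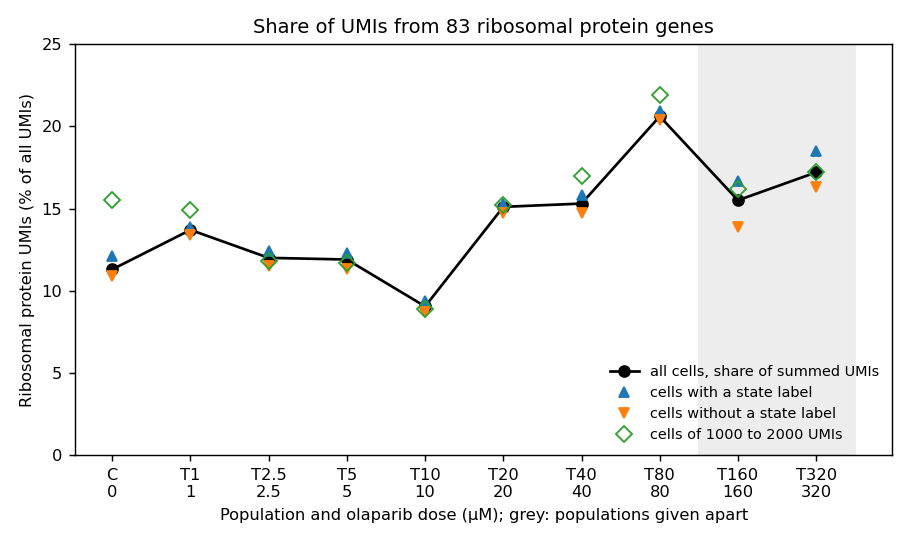
Share of UMIs from the 83 ribosomal protein genes (%, vertical) by population in order of olaparib dose (horizontal), for all cells (line), cells with or without a state label (triangles) and cells of 1000 to 2000 UMIs (diamonds). For all cells the low point is T10 at 9.05% and the high point of C to T80 is T80 at 20.6%; the diamond of C, at 15.5%, lies well above its circle at 11.3%.

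Gene by gene, the populations were compared as differences of log2(CPM + 10) from C, which understates the differences of low genes. A gene counted as measured with 100 or more UMIs in all and 50 CPM or more on either side of the comparison. The median over the 79 or 80 measured members was 0.32, 0.17, 0.01, -0.30, 0.51, 0.48 and 0.85 for T1, T2.5, T5, T10, T20, T40 and T80, in that order. The medians over all measured genes ran from -0.13 in T80 to 0.05 in T10. At T10 and T80 the medians of the ribosomal protein genes thus lay on opposite sides of C. Single members varied, with 25 of 79 measured members above C in T10 and 69 of 80 in T80. With every population restricted to cells of 1000 to 2000 UMIs, the medians were -0.03, -0.35, -0.39, -0.74, 0.10, 0.18 and 0.54 in the same order. T2.5 and T5 then lay below C as well, and the T80 value was smaller.

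In T80, 55 of 80 measured members lay at least 0.5 above C and 1 at least 0.5 below, where 22.4% of all 4206 measured genes were higher by that much and 32% lower. The middle 50% of members ran from 0.33 to 1.34. In T40, 38 members were higher and 3 lower (all genes 23% and 25.2%), and in T20, 40 were higher and 2 lower (18% and 24.7%). In T10, 3 were higher and 26 lower, when 29.6% of all genes were higher and 22.4% lower. The earlier steps gave 15 higher and 2 lower in T1 (21.5% and 23.2%), 8 and 2 in T2.5 (17% and 16.4%), and 5 and 3 in T5 (20% and 20.4%), the higher counts lying near or below the share of all genes. In cells of 1000 to 2000 UMIs the counts of higher and lower members were 3 and 7 in T1, 4 and 23 in T2.5, 0 and 32 in T5, 1 and 56 in T10, 11 and 8 in T20, 23 and 8 in T40, and 43 and 3 in T80. For these cells the shares of all genes past 0.5 are not given, so the counts have no background. The medians over all genes there ran from -0.15 in T80 to 0.08 in T10. With 1 library per population the differences between populations have no test.

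**Figure D2:**
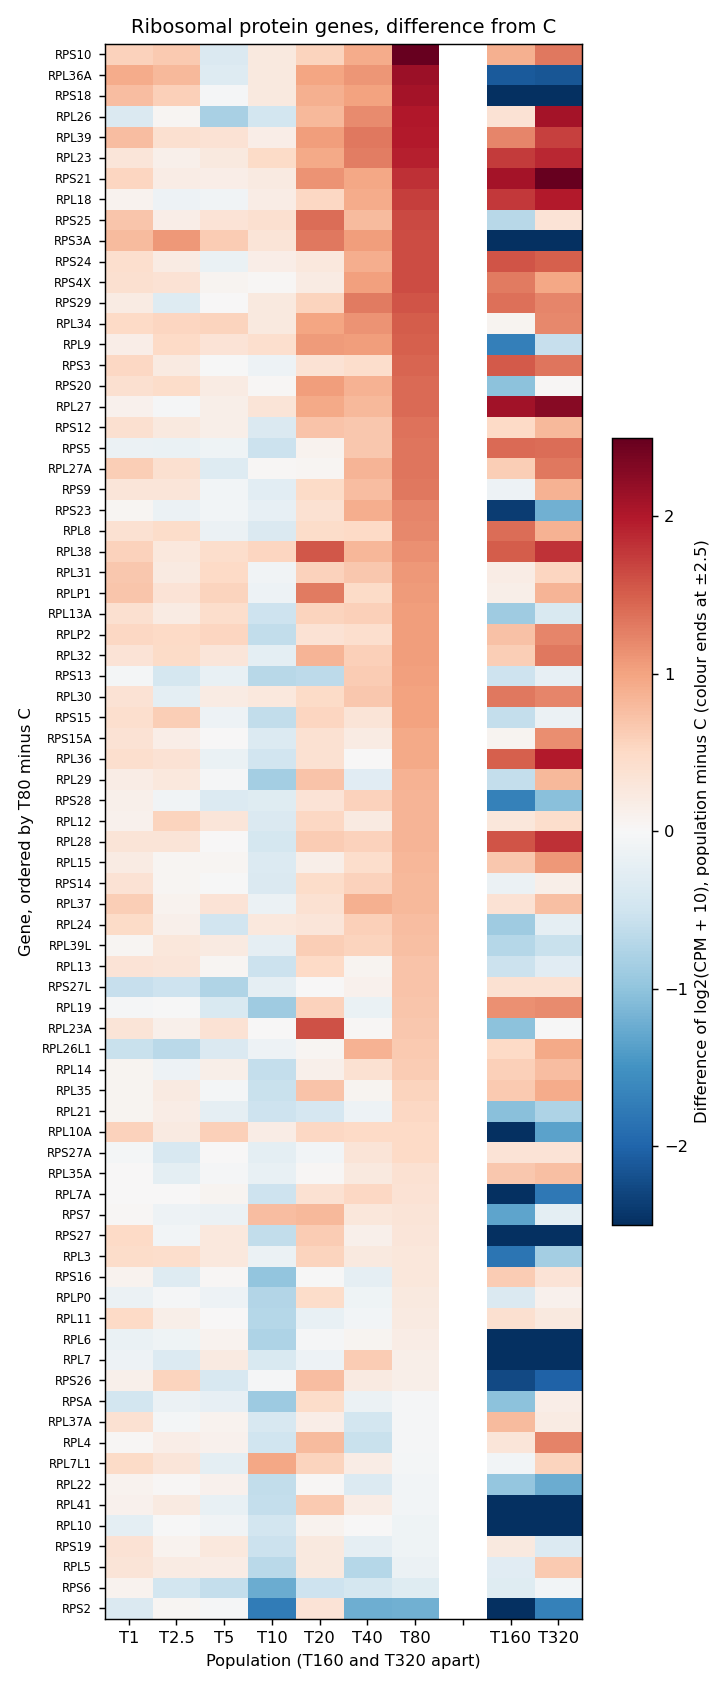
Difference of log2(CPM + 10) from C (colour, red higher and blue lower) for members measured in T80 and C, in rows from the highest to the lowest T80 difference, with populations from T1 to T80 in columns and T160 and T320 set apart. The T10 column is mostly blue (median over all measured members -0.30) and the T80 column mostly red (median 0.85), with RPS10 at the top (2.79) and RPS2 at the bottom (-1.20).

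Small subunit genes had a median of 1.22 in T80 over 31 measured members. The levels and folds of single members, here and below, are over all cells. In cells of 1000 to 2000 UMIs the T80 median of all measured members was 0.54, against 0.85 over all cells. RPS10, a protein of the head of the subunit, stood at 46.6, 74, 78.7, 33.9, 57.2, 73.6, 97.6 and 382 CPM from C to T80 in order of dose. It was 8.2-fold higher in T80 than in C (95% interval 7.41 to 9.09, counting error only), and 382 CPM in T80 stood far above the 97.6 CPM of T40, the next highest. RPS18, a protein of the subunit head that contacts the large subunit, stood at 6159 CPM in T80, against 1452 CPM in C, a 4.24-fold higher value. RPS21 (3258 against 913 CPM), RPS25 (1141 against 357 CPM), RPS24 (3931 against 1253 CPM) and RPS4X (3388 against 1081 CPM) were 3.13- to 3.57-fold higher. RPS25 is needed for initiation at some viral internal entry sites, and RPS24 is mutated in Diamond-Blackfan anaemia. RPS3, which lines the path of the mRNA into the ribosome and has also been described as a DNA repair nuclease, was at 4653 CPM in T80 against 1689 CPM in C (2.75-fold higher). RPS12 stood at 7340 CPM in T80 against 2883 CPM in C.

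RPS2 went the other way, and was the only measured member at least 0.5 below C in T80. It was at 1429, 1113, 1475, 1411, 422, 1829, 604 and 616 CPM from C to T80 in order of dose. The lowest levels were in T10, T40 and T80, and the highest was in T20, so they did not follow the order of dose. RPS2 was 2.32-fold lower in T80 than in C (2.24 to 2.4). Of the 31-letter words in the last 500 bases of its transcripts, 66.6% also occur in other genes, so how its reads were shared out is uncertain. That limit touches members above C in T80 as well, to unlike degrees. The percent was 77.2 for RPS18, 57.9 for RPS12, 56.2 for RPS25 and 44.6 for RPS10. It was 20.6 for RPS24, 14.3 for RPS3, 4.2 for RPS21 and 0 for RPS4X. RPS6, the substrate of the S6 kinases, was at 2758, 2915, 2006, 1824, 1154, 1922, 2043 and 2230 CPM from C to T80 in order of dose. Every population from T2.5 on was below C and T1. RPS19, the gene most often mutated in Diamond-Blackfan anaemia, was at 5046 CPM in T80 against 5423 CPM in C. RPSA, which is also known as the laminin receptor precursor, was at 484 CPM in T80 against 491 CPM in C, and RPS27A, made as a fusion with ubiquitin, at 4832 against 3428 CPM. For RPS6, RPS19, RPSA and RPS27A the percent of words that also occur in other genes was 15.2, 12.3, 68.1 and 41.9.

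Large subunit genes had a median of 0.81 in T80 over 45 measured members, lower than that of the small subunit, with no test of this difference. RPL26 was at 608, 473, 626, 343, 438, 1076, 1389 and 2483 CPM from C to T80 in order of dose. The 5 levels up to T10 all lay below the 3 from T20 on. RPL36A (502 against 106 CPM), RPL39 (1387 against 343 CPM), a small protein at the peptide exit tunnel, and RPL23 (4181 against 1085 CPM), which can bind MDM2, were 4.73-, 4.04- and 3.85-fold higher in T80 than in C. RPL18 was at 3843 CPM in T80 against 1160 CPM in C (3.31-fold higher), and RPL13A, which also takes part in interferon-dependent translational silencing, at 3729 against 1801 CPM. Of the words of RPL26, RPL36A, RPL39, RPL23, RPL18 and RPL13A, 35.6%, 29.8%, 47.7%, 13.5%, 9.62% and 40.4% also occur in other genes.

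Several large subunit genes stayed close to C. RPL37A had 4068, 5305, 3925, 4289, 3090, 4573, 2967 and 3988 CPM from C to T80 in order of dose, with T10 and T40 lowest. RPL4, which reaches into the exit tunnel, was at 424 CPM in T80 against 434 CPM in C. RPL10, which joins the subunit late in its assembly, was at 1167 against 1253 CPM, RPL41, a very short basic peptide, at 1111 against 1170 CPM, and RPL3, close to the peptidyl transferase centre, at 833 against 687 CPM. Over cells of 1000 to 2000 UMIs the differences of RPL10, RPL41, RPL4 and RPL37A were -0.28, -0.30, -0.23 and -0.23. Of the words of RPL3, RPL41, RPL4, RPL10 and RPL37A, 58.7%, 49.6%, 39.8%, 29% and 5.38% also occur in other genes.

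RPL5 and RPL11 enter the ribosome together with the 5S rRNA, and outside it the same particle binds MDM2. RPL5 was at 537, 677, 619, 608, 334, 641, 324 and 484 CPM from C to T80 in order of dose. RPL11 was at 2664, 3754, 2945, 2691, 1616, 2358, 2541 and 3102 CPM from C to T80 in order of dose. Both were lowest or nearly lowest in T10, and their T80 differences of -0.15 and 0.22 lay below the member median of 0.85. Of the words of RPL5 65.9% also occur in other genes, and of those of RPL11 6.76%. The stalk proteins RPLP1 and RPLP2, which recruit translation factors, were at 3552 against 1689 CPM and 2992 against 1446 CPM in T80 and C, while their anchor RPLP0 was at 1118 against 944 CPM. The stalk genes therefore had differences of 1.07, 1.04 and 0.24, and 55% of the RPLP0 words occur elsewhere, against 15% for RPLP1 and 9.49% for RPLP2.

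The paralogs were low throughout. RPS27L was at 113 CPM in T80 against 65.3 CPM in C (1.73-fold higher, 1.56 to 1.93), and its partner RPS27 at 3214 against 2608 CPM (1.23-fold higher). RPL26L1 was at 120 against 72.9 CPM and RPL39L at 79.9 against 42.9 CPM, with differences of 0.65 and 0.76, where RPL26 and RPL39 had 2.01 and 1.98. RPL7L1, a pre-ribosomal protein, was at 95.8 against 99.5 CPM, but at 203 CPM in T10 (2.04-fold higher than C, 1.86 to 2.24), where RPL7 was at 2696 against 3525 CPM. RPL22L1 was at 46 CPM in T80 and 47.9 CPM in C, under the minimum, and RPL22, an RNA-binding protein often mutated in cancer, at 894 against 938 CPM. RPL10L, whose main site is the testis, was at 4.78 against 17.7 CPM and was also under the minimum. RPL17 was listed at 4.51 CPM or less in every population from C to T80. Of the words of RPS27, RPL26L1, RPL7 and RPL39, 70.8%, 54%, 51.3% and 47.7% also occur in other genes. The percent was 35.6 for RPL26, 26.2 for RPL7L1, 11.9 for RPS27L and 10 for RPL39L. How reads were shared out between a paralog and its partner is therefore uncertain, to unlike degrees.

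The test run was a slope per escalation step over C to T80, fitted to summed counts of 11156 genes with edgeR's quasi-likelihood F-test (6 residual degrees of freedom, Benjamini-Hochberg adjustment over all genes, threshold 0.05). Populations of 1 escalation are not independent, though the test takes them to be. Of all genes 3.68% rose and 4.63% fell. Of 82 members tested, 8 rose and 0 fell. Among those that rose were RPL9, RPL18, RPL23, RPL27 and RPL34 of the large subunit and RPS21 and RPS29 of the small subunit. At an unadjusted p under 0.05 there were 26 of the 82 members and 2784 of the 11156 genes. Slopes lay above 0 in 72 members, and the median slope was 0.086 in members and 0.000 in all genes. No other tool run called a member falling.

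RPL23 had the lowest adjusted p, 0.0164 (edgeR), with a slope of 0.251 log2 units per step (SE 0.049). It was at 1085, 1344, 1191, 1288, 1508, 2100, 2623 and 4181 CPM from C to T80 in order of dose. RPL9 followed with 342, 387, 484, 439, 462, 725, 714 and 986 CPM in the same order (slope 0.200, SE 0.043, edgeR adjusted p = 0.0215). RPS29, a zinc-binding protein of the small subunit head, had 2553, 2964, 2050, 2553, 3010, 3739, 6274 and 7599 CPM (slope 0.223, SE 0.055, edgeR adjusted p = 0.0341). Each of the 3 was higher in T20, T40 and T80 than in any population up to T10. The other 5 had edgeR adjusted p-values of 0.0293 (RPL27) to 0.046 (RPL34) and slopes of 0.178 to 0.221. RPL26 (edgeR adjusted p = 0.0502), RPL39 (0.0519) and RPS10 (0.059) missed the threshold with slopes of 0.290, 0.221 and 0.323. RPS2 had a slope of -0.142 (SE 0.095, edgeR adjusted p = 0.398), the lowest of all members.

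The calls rest on few libraries. Without T80 no member rose, and likewise without T40, where 0.706% and 0.86% of all genes rose. Without T80, 7 of 82 members were at an unadjusted p under 0.05, a smaller share than the 1897 of 10908 genes. Without T40 there were 24 of 82 members and 2129 of 11046 genes. Without T2.5 there were 2 (RPL9 and RPL23), without T1, T5 or T20 there were 5, without T10 there were 13 and without C there were 9. With the median UMIs per cell as a covariate no member passed, and 1.34% of all genes rose. There, 12 of 82 members and 2188 of 11156 genes were at an unadjusted p under 0.05. DESeq2 called 20 members, while its share of all genes that rose was 8.79%. With genes that share sequence left out of the fit, RPL18, RPS21 and RPS29 rose of 17 members (4.06% of all genes).

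**Figure D3:**
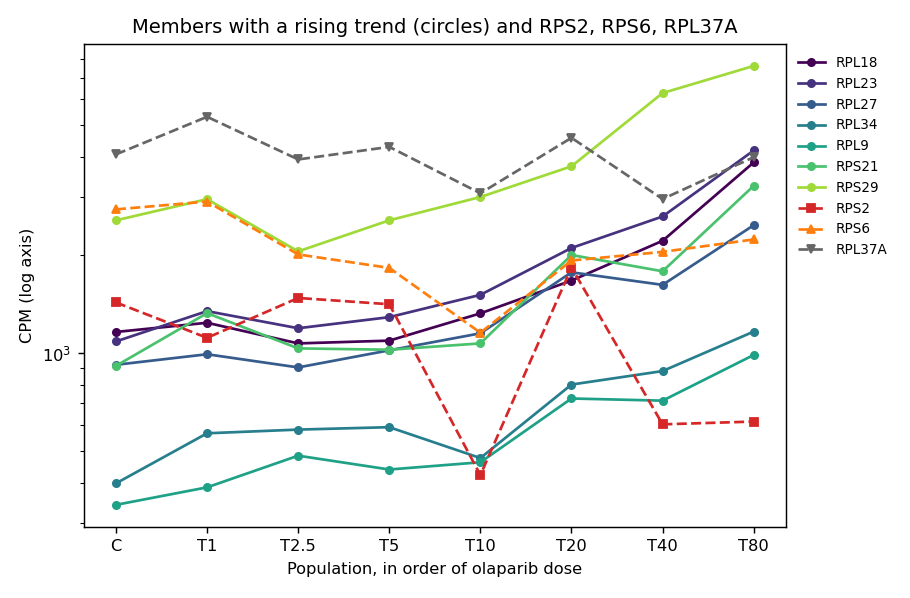
Levels (CPM, log axis) from C to T80 in order of dose for members with a rising slope (circles, solid lines) and for RPS2, RPS6 and RPL37A (dashed lines). The circles are highest in T80, RPL23 for example at 4181 CPM against 1085 CPM in C, while RPS2 lies at 422 CPM in T10, 604 in T40 and 616 in T80 against 1429 CPM in C.

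The authors gave the states to these same cells, possibly from the same expression values, so differences between states are described and not tested. S4 cells came from T10 to T80, S3 cells from the same 4 libraries, and so both could be compared within a library. Ribosomal protein genes made up 11.7% of the UMIs of S4 cells and 8.58% of those of S3 cells in T10, 17.7% and 14.2% in T20, 16.7% and 13% in T40, and 21.5% and 14.2% in T80. These shares rest on 196 S4 and 146 S3 cells in T10 and on 74 and 149 in T20. In T40 the cells numbered 697 and 221, and in T80 838 and 72. S4 was above S3 in each of the 4 libraries. Lineage markers moved with this difference: the epithelial markers had medians between -2.09 and -1.17 in S4 minus S3, with 3 of 3 measured lower in each library. The serous markers, 2 of them measured, had medians of -2.18, -2.39, -1.19 and -1.27 from T10 to T80, with 2 of 2 lower in T10, T20 and T40 and 1 of 2 lower in T80. COL1A1, the fibroblast marker measured in T10 and T20, had 2.79 and 2.39. The part of these in the result was not tested. S2 cells, present in T10 and T20, were at 8.8% and 15.4%. S4 cells had fewer mitochondrial UMIs than S3 cells (6.27% and 8.16% in T10, 5.57% and 7.6% in T20, 8.19% and 10.5% in T40, 8.91% and 11.8% in T80). With those left out, the S4 and S3 shares were 12.4% and 9.34%, 18.8% and 15.3%, 18.2% and 14.5%, and 23.6% and 16.1%, so the difference remained about as large.

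**Figure D4:**
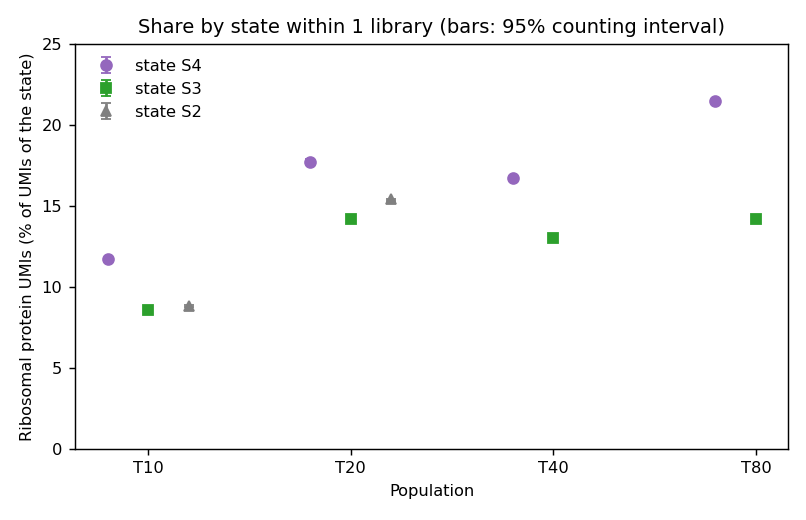
Share of the UMIs of a state that came from ribosomal protein genes (%, vertical) within each library (horizontal), for states S4, S3 and S2, with exact 95% intervals that cover counting error only and are mostly smaller than the symbols. S4 lies above S3 in every library, with the widest gap in T80 (21.5% over 838 S4 cells and 14.2% over 72 S3 cells).

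The median member difference, S4 minus S3, was 0.47 in T10, 0.31 in T20, 0.36 in T40 and 0.63 in T80, where all measured genes had medians from -0.12 to 0.00. Members at least 0.5 higher in S4 numbered 33 of 79 in T10 (20.5% of all genes), 18 of 80 in T20 (23.3%), 16 of 80 in T40 (14.9%) and 55 of 80 in T80 (17.8%), so the T20 and T40 counts lay near the background. Those at least 0.5 lower numbered 1, 2, 1 and 1 (all genes 23.6%, 22.7%, 16.4% and 25.1%). Counted by sign alone, 67 of 79, 68 of 80, 71 of 80 and 76 of 80 members were above 0, where 47.1%, 50.2%, 48.4% and 42.7% of all genes were. In cells of 1000 to 2000 UMIs the median was 0.37, 0.11 and 0.54 in T10, T40 and T80, the last over 152 S4 and 16 S3 cells. T20 held 16 S4 and 27 S3 cells in that range, with shares of UMIs of 16.5% and 13.4%, and its median is not given. In T40 the shares of UMIs in that depth range were 15.8% in S4 and 15.3% in S3 cells, so most of the T40 difference was not seen there. Against S2 cells, the S4 median was 0.37 in T10, with 66 of 79 members above 0 (all genes 49%), and 0.19 in T20, with 51 of 80 (53.4%), while S3 minus S2 gave -0.01 and -0.12.

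Of 78 members measured in all 4 libraries, 64 (82.1%) were above 0 in each, where 746 of 3141 genes (23.8%) were. RPS29 was at 5496 CPM in S4 and 2510 CPM in S3 cells of T10, 6167 and 3393 in T20, 7162 and 4725 in T40, and 8388 and 3977 in T80. RPL13A, at 2191 and 1072 CPM, 4204 and 2191, 3225 and 2001, and 4053 and 1964, and RPL28, with differences of 0.82, 0.84, 0.72 and 0.93, behaved likewise. RPL37A had the opposite order in each library: 2490 and 3472 CPM in T10, 2775 and 4742 in T20, 2733 and 3997 in T40, and 3786 and 5562 in T80 (S4 and S3). RPS2, RPL23 and RPL7L1 were also not above S3 in any of the 4, and RPL9 and RPS7 in 1 of them. RPL37A shares only 5.38% of its words with other genes.

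Members with large differences between T80 and C varied in how far they differed between states. RPL23, with 1.94 in T80 minus C, had -0.05, -0.17, -0.02 and -0.09 in S4 minus S3 in the order of dose, and RPL18, with 1.72, had -0.06, -0.08, 0.05 and 0.08. Others were higher in S4 in every library, such as RPS21 (1.82 in T80 minus C) with 0.89, 0.47, 0.63 and 0.96, and RPS25 (1.65) with 0.95, 0.68, 0.45 and 0.90. RPS6 and RPS19 were the reverse, with -0.31 and -0.10 in T80 minus C and 0.47, 0.50, 0.48 and 0.75 (RPS6) and 0.51, 0.39, 0.47 and 0.57 (RPS19) between states. Across the 78 members, the state differences of T10, T20 and T40, which share no cells with T80 minus C, had a Pearson r of 0.28, 0.21 and 0.20 with it and a Spearman rho of 0.27, 0.14 and 0.13. The state differences of separate libraries had r of 0.78 to 0.84 with each other. These are correlations across genes, which are not independent replicates, and they share gene-wise properties such as level and sequence.

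**Figure D5:**
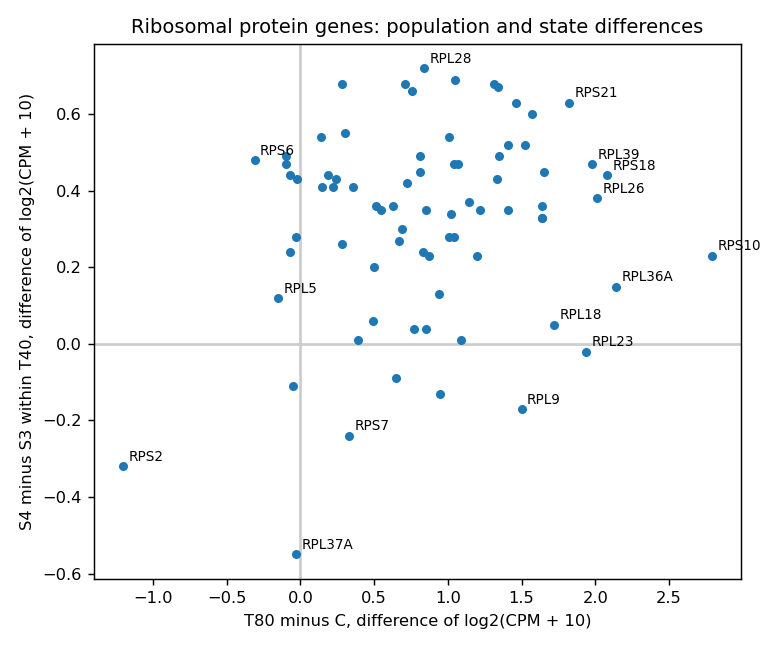
For members measured in T80 and C, the difference of log2(CPM + 10) between T80 and C (horizontal) and between S4 and S3 cells of T40 (vertical), with some members named. RPL23 and RPL18 lie far right near 0 on the vertical axis (-0.02 and 0.05), RPS6 lies left of 0 and high (-0.31 and 0.48), and RPL37A is lowest (-0.55).

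Over all cells of a state, the median member difference from the labelled C cells was 0.20 in S1, 0.00 in S2, 0.12 in S3 and 0.67 in S4. Members at least 0.5 higher and lower numbered 5 and 2 in S1 (all genes 18.4% and 16.1%), 10 and 2 in S2 (22% and 20.4%), 17 and 7 in S3 (22.5% and 22.6%) and 45 and 1 of 81 in S4 (24.4% and 30.3%). Only the S4 count of higher members lay clearly above the share of all genes. In cells of 1000 to 2000 UMIs, with 75 C cells, the medians were -0.03, -0.47, -0.13 and 0.32 in S1 to S4, so that S4 alone lay above C. S5, made up of T160 and T320 cells, had 32 higher and 24 lower of 79 (30.9% and 24.4%), and the loss of counts in those libraries touches it. S2 minus S1 within T2.5 and T5 had medians of -0.01 and -0.05.

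The 5 members on chromosome 1, among them RPL5, RPL11, RPL22 and RPS27, had a median of 0.22 in T80, where 510 measured genes of that chromosome had -0.85, and all 5 were at least 0.5 below C in T10, with a median of -0.65 where 535 measured genes of the chromosome had -0.48. The 4 members on chromosome 12 had 0.16 (all genes there 0.17), the 6 on chromosome 17 had 1.28 (0.12) and the 12 on chromosome 19 had 0.97 (0.03). Members sharing at most 10%, 10% to 50% and over 50% of their words with other genes had medians of 0.94, 1.01 and 0.50.

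In T160, 29 of 79 measured members were at least 0.5 above C and 29 below (all genes 32% and 23.6%), and in T320 41 and 18 (33.2% and 25.1%). The dependence on sharing was far larger there. The 3 classes had medians of 0.83, 0.15 and -1.32 in T160 and 0.96, 0.82 and -0.24 in T320. Of 74 members above 50 CPM throughout C to T80, 12 were under 50% of their lowest earlier level in both populations: 0 of 14 in the class of least sharing, 5 of 40 in the middle class (among them RPL10, RPL36A, RPL41 and RPS23) and 7 of 20 in the class of most (RPL6, RPL7, RPL7A, RPL10A, RPS3A, RPS18 and RPS27). RPS28, which shares 0% of its words, was also low, at 481 CPM in T160 and 762 in T320, against a lowest level of 1245 CPM from C to T80. RPS18 was at 87.6 CPM in T160 and 176 in T320 against 6159 CPM in T80, and RPL36A at 17.3 and 16.3 against 502 CPM. In contrast, 11 members were above their highest earlier level in both, 5 of them among the 14 that share least (RPL18, RPL28, RPL35A, RPL36 and RPS21). How many of all genes were past their earlier levels in these ways was not counted, so the counts of 12 and 11 have no background. RPL28 was at 6851 CPM in T160 and 8184 in T320 against 2298 CPM in C, and RPS21 at 3890 and 5544 against 913 CPM. The share of UMIs from all members, 15.5% in T160 and 17.2% in T320, includes these losses.

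Ribosomal proteins outside the naming rule had a median of 0.80 in T80, with 4 of 4 at least 0.5 higher, where 22.4% of all measured genes were higher and 32% lower. Among them were RPL36AL (304 against 76.1 CPM), FAU (1124 against 553 CPM), which encodes RPS30, and RACK1 (1933 against 1360 CPM). Of them RPL36AL rose in the slope test. Translation factors and other genes with TOP mRNAs had 0.42, with 10 higher and 2 lower of 22, among them NAP1L1 (761 against 394 CPM), a histone chaperone, and NPM1 (1080 against 1750 CPM), a nucleolar chaperone, and none passed the slope test. Genes of ribosome biogenesis and RNA polymerase I lay on the other side of C, with a median of -0.61, 1 higher and 20 lower of 34. MRTO4, a factor of large subunit assembly, was at 23.7 CPM in T80 against 111 CPM in C, and DKC1, the pseudouridine synthase of rRNA, at 81.6 against 181 CPM. MRTO4 and POLR1A, the largest subunit of RNA polymerase I, were the 2 of that list of 47 that fell in the slope test, and 0 rose. Of all genes tested 4.63% fell and 3.68% rose, so these counts lay near the shares of all genes. The list had a median of -0.57 already in T1, with 2 higher and 21 lower of 33, where 21.5% of all measured genes were higher and 23.2% lower. All populations are set against the same C library, and how the biogenesis genes depend on cell depth was not tested. Mitochondrial ribosomal protein genes had a median of -0.38 in T80, with 3 higher and 18 lower of 45. Of all measured genes 22.4% were higher and 32% lower. MRPL37 (85.9 against 265 CPM) and MRPS14 (53.8 against 118 CPM) were the 2 of 75 that fell in the slope test. That is no larger a share than the 4.63% of all genes. By their medians, the RNAs of cytoplasmic ribosomal proteins and of the factors that assemble them thus lay on opposite sides of C in T80.

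Among regulators of mTORC1 and TOP translation, the median was -0.20 in T80, with 3 higher and 4 lower of 14, near the shares of all genes (22.4% and 32%). The mTORC1 inhibitors DDIT4 and DEPTOR were the 2 of 24 that rose in the slope test, where 3.68% of all genes rose. DEPTOR was at 3.75, 9.93, 8.32, 30.4, 22.1, 33.6, 72.9 and 86.4 CPM from C to T80 in order of dose. DDIT4 was at 71.2 CPM in T80 against 17.2 CPM in C, and AKT1S1 at 61.5 against 40.3 CPM. The lower ones were RPS6KB2, an S6 kinase (30.3 against 74.8 CPM), EIF4EBP1 (59.5 against 107), EIF4EBP2 (80.5 against 135) and LAMTOR5 (49.2 against 89.2). The other S6 kinase, RPS6KB1, was under the minimum, at 22.2 against 18 CPM. What these levels mean for mTORC1 activity was not tested.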

How the data were processed

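Single-cell RNA of 10 Kuramochi populations, 1 library each, was analysed from the matrix that the authors deposited, which holds unnormalized UMI counts per gene and cell. A table that the authors deposited gives, for the labelled cells, UMIs and genes per cell as counts, the mitochondrial share as a fraction, and the state. Seurat 2.3.2 is named in the submitters' processing notes, as are hg38 and GRCh38. Not given in the sources used here are the aligner, counting tool, annotation and cell filters, and the way states were assigned. Of the labelled cells, 7322 were matched by name and 918 of T40 by barcode, and all 8240 had identical UMI totals in both tables.

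Counts were summed over cells per population or state and scaled to CPM. No cell filter was added and doublets were not called, so any that passed the authors' filters remain. Fold intervals are exact binomial intervals conditional on the summed UMIs. Slopes were fitted with edgeR 4.0.16 (TMM, at least 100 UMIs); limma 3.58.1 (voom) and DESeq2 1.42.0 were alternatives. On simulated counts of 11156 genes, the slope test recovered 2 of 100 genes with a 2-fold and 22 of 100 with a 4-fold total change, with 3 false calls, so genes without a call may differ. The simulated libraries were drawn independently, without the dependence between populations of 1 escalation. The 3 false calls therefore do not give the error rate in these data. Sharing is the percent of 31-letter words in the last 500 bases of a gene's GENCODE 29 transcripts found in another gene. RefSeq gene starts matched 67 of 83 members by symbol.

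Named members were the 10 highest and 10 lowest in T80 minus C, those of widest range over C to T80, those called in the slope test, and a fixed list of paralog pairs and members of known role; RPS12, RPL28 and members listed to account for a count were added after their values were seen. Members and lists were chosen with earlier results of these data known. Some genes are not reported here by name and are not drawn in the figures, though they stay in the counts and medians.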

Additional observations from a re-analysis of the deposited data

How the results depend on the processing

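No paired analysis was possible because the populations compared have 1 library each and share no replicate; S4 and S3, set side by side within libraries, were not tested, because the states were given to these same cells. Values without 1 population are fits of 7 libraries.

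The number of rising members was 8, and 0 to 13 when 1 population was left out (0.706% to 4.28% of all genes rose). It was 20 with DESeq2 (8.79% of all genes rose, 3.68% in edgeR), 16 over all 10 populations (8.03%), 3 with sequence-sharing genes left out (4.06%) and 0 with the median UMIs per cell as covariate (1.34%). No setting called a falling member.

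Restricting to cells of 1000 to 2000 UMIs moved the member medians to -0.03 (T1), -0.35 (T2.5), -0.39 (T5), -0.74 (T10), 0.10 (T20), 0.18 (T40) and 0.54 (T80), with 3, 4, 0, 1, 11 and 23 members above (T1 to T40) and 7, 23, 32, 56, 8, 8 and 3 below (T1 to T80). TMM scaling gave medians of 0.07 (T2.5), -0.09 (T5) and -0.50 (T10), 4 and 1 members above (T2.5, T5) and 5, 5, 40 and 5 below (T2.5, T5, T10, T40). In T10 it moved the median of all genes to -0.18. DESeq2 size factors gave -0.07 (T5) and -0.48 (T10), with 2 above in T5. Labelled cells alone gave 0.39 in T20, 9 and 5 above (T1, T2.5) and 6 below in T5. A minimum of 200 CPM left 5 above in T2.5 and 0 below in T1 and T2.5. With a size of 1 in place of 0.5, members above numbered 0, 1, 0, 0, 10, 10 and 35 (T1 to T80) and below 0, 0, 0, 2, 0 and 1 (T1 to T40). The shares of all genes past the size used are not given for these settings.

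Shares of UMIs from C to T320 were 12.1, 13.9, 12.4, 12.3, 9.35, 15.3, 15.8, 20.9, 16.7 and 18.5% in labelled cells, and 12.8, 14.8, 13.1, 13.1, 9.86, 16.2, 16.6, 22.5, 17.1 and 18.6% without mitochondrial UMIs. As medians over cells they were 12.7, 14.3, 11.6, 11, 8.52, 15.8, 15.6, 21.8, 15.3 and 16.4%, and in cells of 1000 to 2000 UMIs 15.5, 14.9, 11.8, 11.7, 8.9, 15.2, 17, 21.9 and 16.2% (C to T160). Against C cells, S1 had 0.13 with equal weight per library and 0.13 without mitochondrial UMIs. In cells of 1000 to 2000 UMIs, S1 to S4 had -0.03, -0.47, -0.13 and 0.32, on 75 C cells. Of settings for S4 minus S3, added after seeing the data, that depth range gave 0.37 (T10), 0.11 (T40) and 0.54 (T80), and leaving out sharing genes gave 0.16 (T20). Of the values for 43 named members in T80 minus C, 142 kept within counting error and 73 moved; no member at least 0.5 from C changed sign. What moved the values was not tested beyond these settings.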
